A study of Mus musculus with 2 samples.

Results

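B cells of AT3 tumors were taken as the barcodes that carried at least 3 UMIs of Cd79a, Cd79b and Ms4a1 together, at most 1 UMI of Cd3d, Cd3e and Cd3g, and under 10 UMIs of C1qa, C1qb and C1qc, after cell filters of 500 to 7500 detected genes and at most 15% mitochondrial UMIs. A UMI is 1 counted RNA molecule. The rule found 580 B cells among 6363 kept barcodes, of which 543 came from the library labelled WT and 37 from the library labelled 6PGDKO. The values of the B cell, T cell and macrophage genes named in the rule are what the cells were chosen by, and are given as a description only.

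AT3 is a mouse mammary carcinoma line. WT mice were Pgd fl/fl, which carry the floxed allele of Pgd, the gene of 6-phosphogluconate dehydrogenase, without a Cre, and 6PGDKO mice were Pgd fl/fl LysM-Cre, in which the promoter of the myeloid gene Lyz2 drives Cre, so that B cells are not the targeted lineage. Both groups carried the floxed allele and the same tumor line, were 6 to 12 weeks old at the start, and gave tumors on day 30, with cells of 10 mice pooled into 1 library per genotype. The labels name a sort on CD45, which B cells carry, and also a gate on live cells with CD11b, the product of Itgam, which was found in 1.29% of WT and 2.70% of 6PGDKO B cells. How these gates set the number of B cells was not tested.

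With 1 library per genotype there is no replicate error and no test between genotypes. The intervals below are exact 95% intervals that cover counting error only, and for a gene whose UMIs sit in few cells they are too narrow. The libraries held 27245625 UMIs over 3728 barcodes in WT and 28827045 over 3014 in 6PGDKO, and shared 0 barcodes. Cells of both genotypes were loaded together and split by a cell-surface oligonucleotide, so sharing 0 barcodes follows from the split. B cells were shallow, with a median of 3366 UMIs in WT (927 to 32618) and 3091 in 6PGDKO (1715 to 33469), against 5017 and 5833 in T cells and 11119 and 11876 in macrophages. T cells were called by at least 3 Cd3 UMIs and macrophages by at least 10 C1q UMIs, each with 0 UMIs of the 3 B cell genes.

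A small number of deep cells weighed on the sums. In 6PGDKO 3 B cells of over 10000 UMIs held 37.3% of all B cell UMIs, and in WT 18 such cells held 12.3%. The deepest 6PGDKO cell, with 33469 UMIs, carried 567 UMIs of marker lists of other cell types, among them 227 of Krt14, 73 of Krt8 and 16 of Krt18, keratins of epithelial cells. The other 6PGDKO deep cells carried 56 and 68 such UMIs, in the first mostly epithelial and in the second mostly macrophage markers. No doublet caller was used. The part of mixed droplets in these cells was not tested, and sums between genotypes are therefore given with and without the deep cells.

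B cells carry an immunoglobulin on their surface as the antigen receptor, which signals through CD79A and CD79B. Resting follicular B cells make IgM and IgD from one heavy chain gene, recirculate between blood and lymphoid tissue, and present antigen on MHC class II. After antigen and T cell help they switch to IgG, IgA or IgE, divide in germinal centers, and may become plasma cells that secrete antibody. In tumors B cells are known to occur scattered or in lymphoid aggregates. The lineage is set by the factors EBF1 and PAX5, and many of its genes are bound by octamer factors with the coactivator OBF1, the product of Pou2af1.

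The 20 genes with the largest ratio of B cells over all other kept barcodes in WT (log2 of CPM, UMIs of a pool of cells scaled to a total of 1000000) described the lineage. Gm31243, an uncharacterized transcript, led with a log2 ratio of 7.10, followed by Fcer2a (CD23, the low affinity IgE receptor) at 6.41, Ebf1 at 6.38 and Cd79a at 6.37. Further leading genes were Ms4a1 (CD20), Fcmr (the IgM Fc receptor), the lambda constant genes Iglc1, Iglc2 and Iglc3, Cr2 (complement receptor CD21), Ighd, Pax5, Vpreb3, Bank1, Chst3, Fcrla, Cd79b and Tnfrsf13c (the BAFF receptor), with log2 ratios between 5.57 and 6.18. In 6PGDKO the same genes had log2 ratios of 5.13 to 8.17, except Ighg1. Ighg1 was leading in WT at 5.73 although only 6.63% of WT B cells held it, and its 6PGDKO ratio was 0.21 from 1 UMI.

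Promoters were read for these genes from RefSeq's GRCm38.p6, the assembly that mm10 stands for, as 250 bases before to 50 bases after each start. Of the 20 genes 12 matched the table, with 16 promoters. Each was searched on both strands for the octamer ATGCAAAT and for the core palindrome that EBF1 binds, TCCC and GGGA with any 2 bases between them. The octamer was in the promoter of 1 leading gene, Vpreb3, 45 bases before the start and on the minus strand, against 532 of 27025 genes (1.97%) in the whole table. The palindrome was in that of 1 gene, Chst3, 198 bases before the start, against 287 of 27025 genes (1.06%). With the match in capitals, the sequences are those of the promoter with the octamer, the promoter with the palindrome, and the promoter of Cd79a, the gene that carried most of the rule's UMIs, which holds neither string in this window. A match is a string of letters and not a measured binding site. Vpreb3 (chr10:75948050-75948349, plus strand), Chst3 (chr10:60219211-60219510, minus strand) and Cd79a (chr7:24897247-24897546, plus strand) read as follows, 5′ to 3′.
Vpreb3: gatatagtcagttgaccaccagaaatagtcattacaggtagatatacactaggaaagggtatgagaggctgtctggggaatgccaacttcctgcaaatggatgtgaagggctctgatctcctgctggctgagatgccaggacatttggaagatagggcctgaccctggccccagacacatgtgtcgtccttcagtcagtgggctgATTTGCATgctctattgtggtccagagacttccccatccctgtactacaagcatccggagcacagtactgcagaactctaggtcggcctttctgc
Chst3: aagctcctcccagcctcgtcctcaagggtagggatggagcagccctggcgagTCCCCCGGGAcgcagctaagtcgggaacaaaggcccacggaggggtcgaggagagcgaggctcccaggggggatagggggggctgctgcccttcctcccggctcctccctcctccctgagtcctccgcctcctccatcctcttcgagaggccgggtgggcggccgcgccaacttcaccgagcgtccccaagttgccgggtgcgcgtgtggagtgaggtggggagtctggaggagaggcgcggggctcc
Cd79a: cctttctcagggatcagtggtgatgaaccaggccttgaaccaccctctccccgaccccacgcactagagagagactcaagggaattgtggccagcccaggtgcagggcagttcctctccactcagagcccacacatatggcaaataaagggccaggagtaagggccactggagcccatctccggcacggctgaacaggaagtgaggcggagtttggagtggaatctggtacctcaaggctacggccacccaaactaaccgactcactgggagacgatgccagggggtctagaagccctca

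The label was checked against B lineage genes that the rule did not use. All 20 genes of that list were found in the B cells of both libraries, and 19 of 20 were higher there (CPM) than in T cells and in macrophages. The exception was Cd72, a coreceptor that macrophages also express, at 217 CPM in WT B cells and 524 in WT macrophages. Ebf1 (chr11:44618100-45008096) was found in 96.7% of WT and 97.3% of 6PGDKO B cells, against 0.373% and 1.00% of T cells, which are deeper. Ighd, the IgD constant gene, was in 82.7% and 73.0% of B cells against 1.80% and 2.37% of T cells, and Fcer2a in 61.3% and 40.5% against 0.186% and 0.273%. Pax5 (chr4:44524748-44710694) was in 56.0% and 27.0%. Ighm and Igkc, though at 95.4% and 96.1% of WT B cells, also gave UMIs in 42.0% and 12.5% of WT T cells, so that for these genes a single UMI does not mark a B cell.

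**Figure D1:**
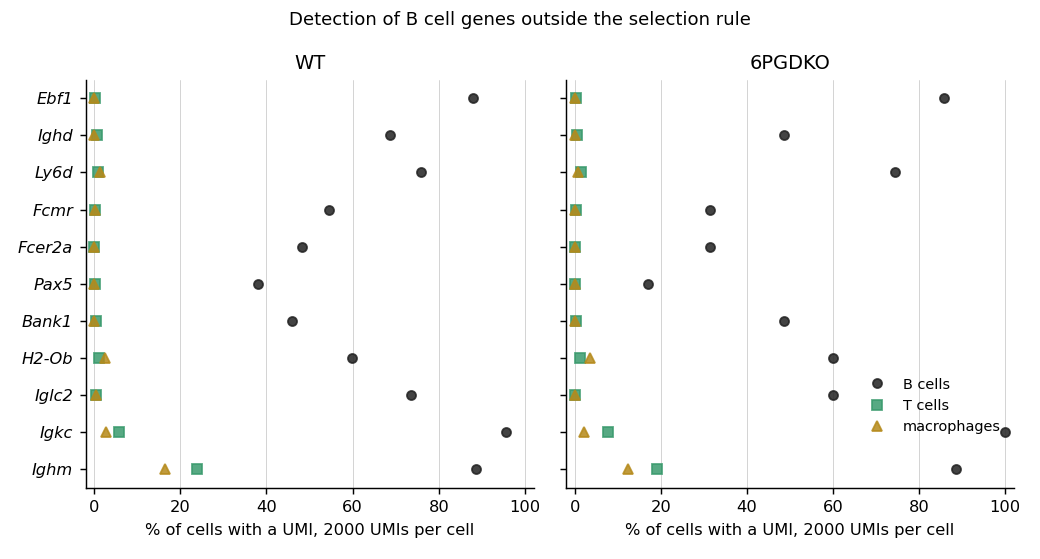
Percent of cells with at least 1 UMI of 11 B lineage genes that the rule did not use, after thinning each cell to 2000 UMIs, in B cells (circles), T cells (squares) and macrophages (triangles) of each library, with no error bars. The circles lie to the right of the other marks in every row, and for Ighm T cells still reach 23.8% in WT and 19.0% in 6PGDKO.

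The rule's own genes had a median of 13 UMIs per B cell in WT (3 to 65) and 8 in 6PGDKO (4 to 30). Just inside the limit, the 7 WT barcodes with 3 such UMIs held Ebf1 in 7, Ighd in 7 and Fcer2a in 4. Just outside it, the 3 WT barcodes with 2 UMIs held Ebf1 in 3, Ighd in 3 and Fcer2a in 2. In 6PGDKO no barcode had 2 or 3. Of the barcodes with at least 3 B cell UMIs, the limits on Cd3 and C1q left out 77 in WT and 27 in 6PGDKO, which were deep (median 10950 and 15099 UMIs) and held Ighd in 53 and 19.

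B cells were 15.2% of kept WT barcodes (14.1 to 16.5; 543 of 3565) and 1.32% of kept 6PGDKO barcodes (0.933 to 1.82; 37 of 2798). The WT share was 11.5 times the 6PGDKO share (8.25 to 16.5). Set against T cells of the same library, there were 33.7 B cells per 100 T cells in WT (30.5 to 37.2) and 3.37 in 6PGDKO (2.36 to 4.67). The WT value was the higher one under each alternative rule that was run, with shares of 10.9% to 17.4% in WT and 0.965% to 2.93% in 6PGDKO. The 2.93% came from calling B cells by markers outside the rule, which added 45 barcodes in 6PGDKO and 31 in WT. Of the added barcodes 44 and 31 held Ly6d, a surface gene of B cells and of some epithelia, 32 and 19 held Epcam and 22 and 12 held Krt8, and 43 and 26 held no UMI of Cd79a, Cd79b or Ms4a1.

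**Figure D2:**
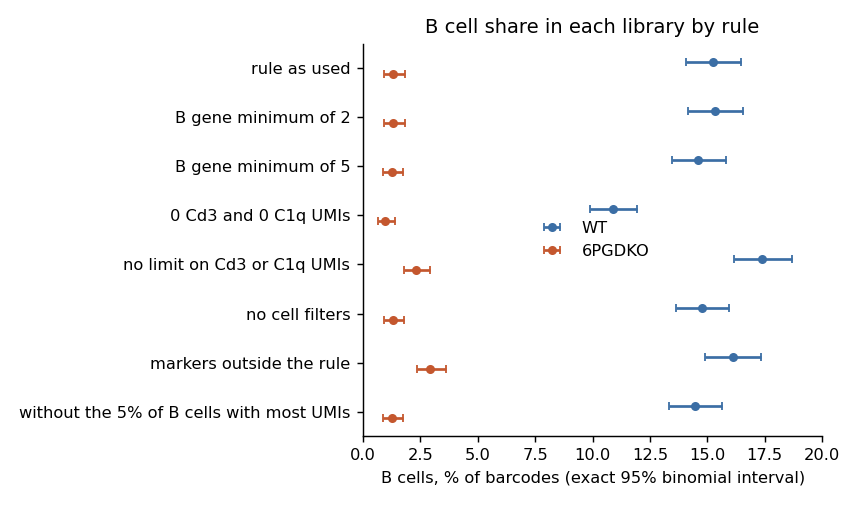
B cells as percent of barcodes (x axis) in WT (blue) and 6PGDKO (red) under the rule as used and 7 alternatives, with exact 95% intervals for counting error only and 1 library per genotype. WT lies between 10.9% and 17.4% and 6PGDKO between 0.965% and 2.93%, and no pair of intervals overlaps.

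The 2 groups were told apart by a cell-surface oligonucleotide, 309 for WT and 310 for 6PGDKO, after which cells were loaded together. B cells bound less of it than macrophages, with a median of 622 UMIs of their own oligonucleotide in WT (T cells 817, macrophages 2968) and 790 in 6PGDKO (1017 and 2604). Their own oligonucleotide made up a median of 82.0% of the 2 oligonucleotides in WT B cells and 89.0% in 6PGDKO B cells, with minima of 68.0% and 78.8%. In WT 59 B cells (10.9%) and in 6PGDKO 5 (13.5%) lay within 5 points of their library's lowest value, against 7.70% and 14.5% of T cells and 0% and 0.537% of macrophages. Barcodes assigned to neither group were not analysed here, and the part of this assignment in the B cell numbers was not tested.

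Genes of the antigen receptor and its signaling were detected throughout. All 22 genes of the receptor list were found in both libraries. Among the chains, Igkc (kappa) stood at 11368 CPM in WT and 4275 in 6PGDKO, Ighm at 1631 and 1480, and Ighd at 620 and 311. The kinase genes Lyn (180 and 180 CPM), Syk (253 and 186), Btk (69.5 and 60.1) and Blk (88.0 and 87.4), and the adaptor gene Blnk (161 and 81.9), were all detected, as were the inhibitory receptor genes Cd22 (179 and 76.4), Cd72 and Fcgr2b (67.6 and 60.1). Against macrophages, Lyn, Fcgr2b and Pik3ap1 were lower in WT B cells, with 350, 450 and 170 CPM in macrophages.

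Transcription factor genes were led by Klf2, a factor that keeps lymphocytes in recirculation, at 3036 CPM in WT and 2801 in 6PGDKO. Foxp1, which favors the follicular B cell fate, stood at 477 and 590 CPM, Irf8 at 287 and 131, Bach2, which holds back plasma cell differentiation, at 138 and 49.1, and Pou2af1 at 113 and 104. The plasma cell factor genes Prdm1 and Xbp1 were in 6.08% and 9.02% of WT B cells, below the 14.2% and 22.7% of WT T cells. T cells are deeper (median 5017 against 3366 UMIs in WT), and these shares are not matched for depth. Tbx21, the gene of T-bet, was in 4 WT cells and 0 of 37 6PGDKO cells, for which the exact interval reaches 9.49%.

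Genes of naive follicular cells were common, and 13 of 14 of them were higher than in T cells and macrophages in each library. Ccr7, the receptor that guides cells into lymphoid tissue, was in 60.0% of WT and 81.1% of 6PGDKO B cells, and S1pr1, the exit receptor, in 48.3% and 67.6%. Cxcr5, the receptor for entry into follicles, was in 16.6% and 16.2%, against 0.807% and 1.27% of T cells. Of other positioning receptors, Cxcr4 stood at 300 CPM in WT and 289 in 6PGDKO, Gpr183 at 331 and 278, and Ccr6 at 59.3 and 49.1.

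The main MHC class II genes, Cd74, H2-Aa, H2-Ab1 and H2-Eb1, were found in at least 99.4% of B cells. Cd74, the invariant chain gene, was in 100% of B cells of both libraries, at 8945 CPM in WT and 8124 in 6PGDKO. H2-Aa (3549 and 3314 CPM), H2-Ab1 (3197 and 3210) and H2-Eb1 (3194 and 2686) were close to one another in level, below the 10000 or more CPM of WT macrophages. H2-Ob, which tempers peptide loading, set B cells apart at 434 and 344 CPM, against 7.94 and 11.1 in T cells and 11.7 in WT macrophages. After thinning every cell to 2000 UMIs, the antigen presentation list had a median of 54 UMIs per B cell in both libraries, against 16 and 20 in T cells and 170 and 123 in macrophages.

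Survival and innate receptor genes were lower. The BAFF receptor gene Tnfrsf13c was in 41.3% of WT and 29.7% of 6PGDKO B cells and the TACI gene Tnfrsf13b in 28.5% and 16.2%, while Tnfrsf17 (BCMA, of plasma cells) and Cd70 were at 0 UMIs in both. Ly86 and Cd180, which form a Toll-like receptor complex of B cells, were in 56.0% and 30.8% of WT and 59.5% and 10.8% of 6PGDKO cells. Tlr7 was in 10.1% and 18.9%, and Tlr9 in 3 WT cells and 0 6PGDKO cells.

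Of the genes of other B cell subsets, some were sparse and others were not. The precursor genes Rag1, Rag2, Dntt, Igll1 and Vpreb1 were at 0 UMIs in the B cells of both libraries, and Cd93, of transitional cells, was in 6.08% and 2.70%. Vpreb3 was the exception in this list, in 30.8% and 32.4%. Cr2, high in marginal zone cells and also present in follicular cells, was in 39.0% and 10.8%, whereas Cd9, Cd1d1, Dtx1 and S1pr3 of the marginal zone list were in 4.60%, 2.95%, 11.8% and 3.68% of WT cells. Mzb1 of the same list was in 53.5% of WT B cells outside the switched range defined below. The marginal zone list as a whole was in 76.4% of WT B cells. Cd5, a marker of B-1 cells, had 1 UMI in WT and 0 in 6PGDKO, against 46.2% of WT T cells. Il10, the cytokine by which regulatory B cells are described, had 1 UMI in WT and 10 UMIs in 2 6PGDKO cells, nearly all in 1 cell. The regulatory list as a whole, which also holds Cd274 and Tgfb1, was in 56.5% of WT and 62.2% of 6PGDKO B cells. Its median was 1 UMI per cell in both. The T cell list was in 25.8% of WT and 27.0% of 6PGDKO B cells with a median of 0 UMIs, and Cd3d, Cd4, Cd8b1, Cd28, Lck and Thy1 were at 0 in 6PGDKO B cells. The macrophage list had a median of 2 UMIs per B cell in both, and Lyz2 was at 0 UMIs in 6PGDKO B cells. LysM-Cre is an allele of Lyz2 itself, and Lyz2 was found in fewer 6PGDKO than WT macrophages, as given below. Its 0 in 6PGDKO B cells therefore says little about macrophage RNA.

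B cells were then placed into ranges by UMI counts. Switched cells had at least 3 UMIs of Ighg1, Ighg2b, Ighg2c, Ighg3, Igha and Ighe and more of these than of Ighm and Ighd. Activated cells were not switched and held at least 5 UMIs from at least 3 of 20 genes that antigen receptor or CD40 engagement induces, such as Cd69, Cd83, Nr4a1, Egr3 and Myc. Naive cells were neither and held Ighd. These are ranges of counts and not cell types.

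In WT 401 of 543 B cells fell into the activated range (73.8%, 69.9 to 77.5), 109 into the naive range (20.1%, 16.8 to 23.7), 16 into the switched range (2.95%, 1.69 to 4.74) and 17 into none (3.13%). In 6PGDKO the numbers were 29 of 37 activated (78.4%, 61.8 to 90.2), 5 naive (13.5%, 4.54 to 28.8), 0 switched (0% to 9.49%), and 3 in none. The counting intervals of the 2 libraries overlapped in every range. The activation list had a median of 8 UMIs per WT B cell (0 to 130) and 14 per 6PGDKO B cell (0 to 84), and 120 WT cells (22.1%) and 3 6PGDKO cells (8.11%) lay within 1 UMI of the limit of 5.

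The share in the activated range moved with depth. With every cell thinned to 2000 UMIs, which left out 15 WT and 2 6PGDKO cells below that depth, 46.4% of WT (42.1 to 50.8) and 65.7% of 6PGDKO B cells (47.8 to 80.9) were in the activated range and 35.6% and 17.1% in the naive range. The thinned list had a median of 5 UMIs in WT and 7 in 6PGDKO B cells, and of 4 and 5 in T cells and 8 and 8 in macrophages. The list of immediate early and heat shock genes, which tissue dissociation also induces, stood at 18582 CPM in the activated and 14553 in the naive range of WT. Its thinned median was 32 UMIs in WT and 23 in 6PGDKO B cells, against 19 and 16 in T cells. The part of cell isolation in the activation genes was not tested.

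**Figure D3:**
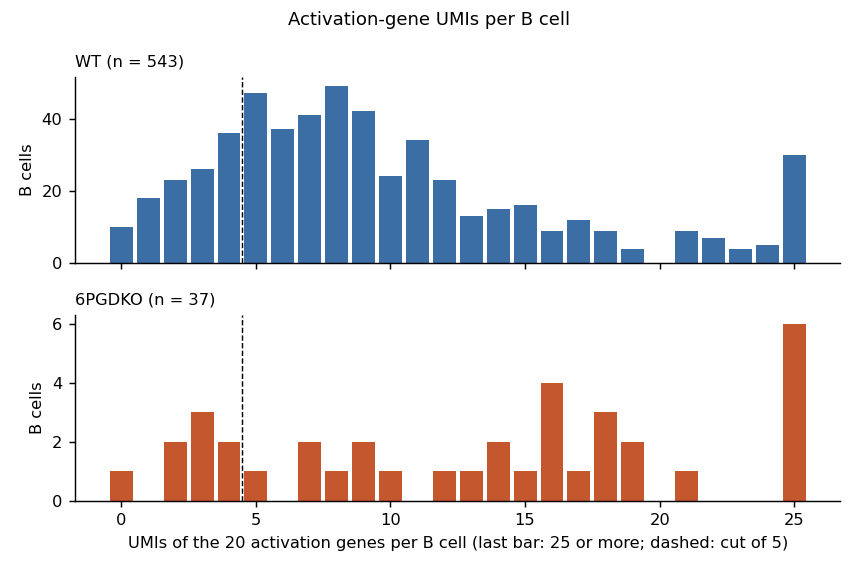
Number of B cells (bars) by UMIs of the 20 activation genes per cell, without thinning, in WT (543 cells) and 6PGDKO (37 cells), with separate y axes. The dashed line marks the limit of 5 UMIs and the last bar holds cells of 25 or more; the medians were 8 and 14.

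In WT the naive follicular list stood at 7630 CPM in the naive and 7011 in the activated range, and the antigen presentation list at 29267 and 25935. Among genes that the ranges did not use, Egr1, an immediate early factor, was in 29.7% of activated and 10.1% of naive cells. Nr4a1, which the range used, was in 68.3% and 17.4%. Other genes with large ratios over naive cells had their UMIs in few cells: S100a9 (282 UMIs in 5 activated cells and 0 in naive cells), S100a8 (162 UMIs in 7 cells) and Retnla (80 UMIs in 5 cells), genes of neutrophils and macrophages, and the chemokine gene Xcl1 (72 UMIs in 9 cells). Of genes higher in the naive range, Gm26917 stood at 249 CPM against 100 in the activated range, with 64.8% of its UMIs in 1 cell, Siglecg, an inhibitory receptor gene, at 181 CPM against 104, Rnase6 at 212 against 133 and Iglc1 at 631 against 363.

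The 16 switched cells, all in WT, were deep, with a median of 10059 UMIs (4229 to 26448). Ighg1 led in 11 of them, Ighg2b in 4 and Igha in 1, and no cell was led by Ighg2c, Ighg3 or Ighe. They split by Jchain, which joins the units of secreted IgA and IgM. In 2 cells Jchain gave 356 and 473 UMIs, with 577 and 4486 UMIs of Ighg1, 2018 and 11573 of Igkc, and Ebf1 at 1 and 0, while in the other 14 Jchain was at most 11. One of these 2 cells also held 78 macrophage list UMIs and the other 15. The macrophage list includes Ly6c2, whose 81 UMIs over the switched cells sat in 2 of them, 95.1% in 1 cell. Over all 16 switched cells Apoe had 71 UMIs, in 15 cells, while Csf1r, Adgre1, Cd14 and Lyz2 had 1 UMI each. Tnfrsf17 was at 0 in all 16 cells.

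The 14 other switched cells held genes of the germinal center, the site where B cells divide and mutate their receptors. Mybl1 and Rgs13 were in 10 of 14 each, S1pr2, which confines cells to the germinal center, in 8, and Fas in 9. The germinal center list had a median of 14.5 UMIs (1 to 36) and reached at least 5 in 12 cells. Ebf1 was in all 14 and Pax5 in 10, whereas Ccr7, of recirculating cells, was in 1. Mki67, of dividing cells, was in 9, and the cell cycle list had a median of 29 UMIs (6 to 152).

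Outside the switched range the germinal center list reached at least 5 UMIs in 1 WT cell, which was in none of the ranges, and in 0 of 37 6PGDKO cells, though cells there were shallower. Mki67 was in 9 of 16 switched cells and in 6 of the other WT B cells. Eaf2, a gene of germinal center cells, was in 14 switched and 18 other cells, and Basp1 in 15 and 22. Thinning to 2000 UMIs left 8 switched cells, 1.52% of 528, and 0 of 35 in 6PGDKO.

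**Figure D4:**
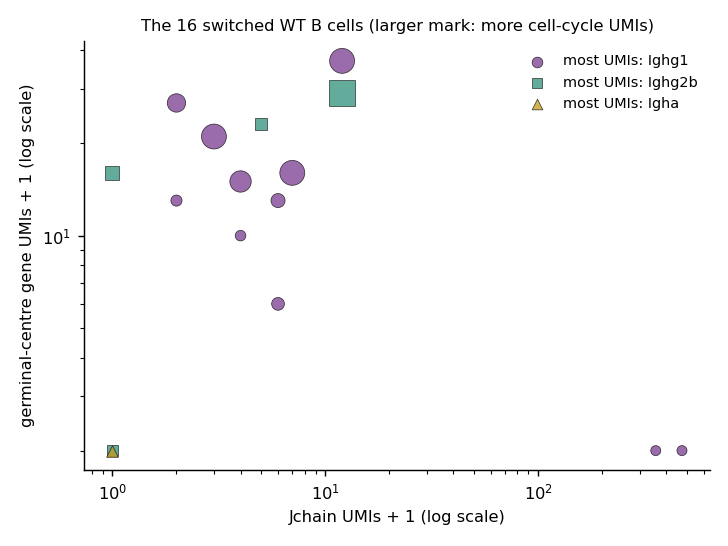
UMIs of the germinal center list plus 1 (y axis, log scale) against Jchain UMIs plus 1 (x axis, log scale) in the 16 switched WT B cells, 1 mark a cell, colored by leading isotype and larger with more cell cycle UMIs. The 2 cells with 356 and 473 Jchain UMIs hold 1 germinal center UMI each, 12 of the other 14 hold 5 or more, and 1 Ighg2b cell and the Igha cell fall on the same point.

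Light chains were read per cell from the constant genes. A cell was called kappa or lambda where at least 90% of at least 3 light chain UMIs were of that type. In WT 98 cells (18.0%) were kappa, 24 (4.42%) lambda and 421 (77.5%) mixed, and in 6PGDKO 11 (29.7%), 1 (2.70%) and 25 (67.6%). Mixed cells mostly held Igkc beside a few Iglc2 and Iglc3 UMIs: among cells with at least 10 Igkc UMIs (425 and 32), Iglc2 had a median of 3 and 2 UMIs and Iglc3 of 2 and 1, and 95.3% and 87.5% held either, against 0.683% and 0.546% of T cells. Iglc1 had a median of 0 in the same cells. Iglc2 and Iglc3 are near-identical copies, so the counts between them are uncertain. Cells with at most 1 Igkc UMI and at least 10 lambda UMIs numbered 21 in WT (3.87%), of which 9 were led by Iglc1 and 10 by Iglc2 or Iglc3, and 1 in 6PGDKO.

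Variable genes were too sparse to describe clones. At least 2 UMIs of a kappa variable gene were found in 13 WT cells, of a heavy chain variable gene in 18 and of a lambda variable gene in 7, and in 6PGDKO in 1, 0 and 0 cells. The highest counts sat in switched cells, with 160 UMIs of Igkv3-12 in 1 cell and 59 of Igkv10-96 in 1 cell.

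Between genotypes B cell UMIs were summed per library and compared as the log2 ratio of CPM, 6PGDKO over WT. The sums rest on 2159464 WT and 183152 6PGDKO UMIs. A gene was called at a ratio of at least 2-fold with a counting interval that left out 0. Counting alone leaves 0 out of the interval in up to 5% of genes, before the limit on fold. Of 7305 genes with at least 20 UMIs, 572 were called higher (7.83%) and 154 lower (2.11%) in 6PGDKO, with a median log2 ratio over all genes of 0.14. Scaled without mitochondrial and ribosomal protein genes the split was 460 higher and 218 lower and the median 0.02, so that each ratio below is lower by the same shift on that scale. Without the deep cells 210 of 6655 were called higher (3.16%) and 71 lower (1.07%), with a median of 0.11, and 120 and 46 of these were among the calls of all cells. Called genes are differences between 2 pools of cells. Counts of called list genes below are set against these shares of all tested genes. With few 6PGDKO UMIs, a gene of few WT UMIs could not be called lower. Lower calls numbered 154 at a minimum of 20 UMIs, of 50 (4476 genes tested) and with no minimum, against 572, 336 and 972 higher calls. The split and the shares of lower calls therefore depend on depth. These shares are low marks for lists of genes with many UMIs.

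The called B lineage genes were lower in 6PGDKO B cells. Of 20 identity genes outside the rule 0 were called higher and 5 lower (all tested genes 7.83% and 2.11%), with a median log2 ratio of -0.68. Without deep cells the counts were 0 and 2 (3.16% and 1.07%), with a median of -0.24. Pax5 had 548 UMIs in WT and 12 in 6PGDKO, a log2 ratio of -1.95 (-2.91 to -1.14), and without deep cells -1.38 (-2.34 to -0.56). Fcmr (968 and 33 UMIs) had -1.31 (-1.86 to -0.82) and -1.18 (-1.81 to -0.61). Both genes were lower with and without the deep cells, at thinned cell shares of 38.1% and 17.1% for Pax5 and 54.5% and 31.4% for Fcmr. Ebf1 was not called, with a log2 ratio of -0.67 (-0.92 to -0.43), and without deep cells -0.31. Ebf1 was in 87.9% and 85.7% of thinned cells.

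In the receptor list 0 of 22 genes were called higher and 6 lower (all tested genes 7.83% and 2.11%). Without deep cells the counts were 0 and 2 (3.16% and 1.07%). The 2 were Cr2 (344 and 7 UMIs), a complement receptor, with -2.06 (-3.38 to -1.0) and without deep cells -1.51 (-2.83 to -0.45), and Siglecg (263 and 8 UMIs), an inhibitory receptor, with -1.48 (-2.71 to -0.48) and -1.33 (-2.79 to -0.19). The rule's gene Cd79a had -0.74, and -0.30 without deep cells. Igkc went from -1.41 with all cells to 0.25 without deep cells. In WT 1 switched cell held 11573 of its 24549 UMIs, and the deep 6PGDKO cells, with 37.3% of B cell UMIs, held 13, 17 and 11. Ighm was close to 0 on both counts (-0.14 and 0.37).

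Among 15 tested transcription factor genes 0 were called higher and 4 lower (all tested genes 7.83% and 2.11%). Without deep cells the counts were 0 and 3 (3.16% and 1.07%). The 3 were Pax5, Bach2 (297 and 9 UMIs, -1.48 and -1.01) and Irf8 (619 and 24 UMIs, -1.13 and -1.01). In T cells the log2 ratio of Bach2 was -0.97 and that of Irf8 1.00, so that Irf8 had opposite signs in the 2 cell types.

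The naive follicular list had 0 of 14 genes higher and 3 lower in both versions. Over all tested genes the shares were 7.83% and 2.11%, and 3.16% and 1.07% without deep cells. Without deep cells the 3 were Fcer2a (-1.08, -1.82 to -0.42), Fcmr and Bach2. Within the naive range, which held 5 6PGDKO cells, the log2 ratio of Fcer2a was 0.0691 (-1.58 to 1.33) and that of Ebf1 0.26 (-0.39 to 0.85). These had the opposite sign, but both intervals held 0, and Fcer2a rested on 5 6PGDKO UMIs in 2 cells. Ighd had -0.99 (-1.40 to -0.61) and without deep cells -0.73. Other members of the list did not share the sign: Ccr7 had 0.38 and without deep cells 0.66, S1pr1 0.34 and 0.80, Foxp1 0.31 and 0.70, and Satb1 0.37 and 0.72. For Satb1, S1pr1 and Foxp1 the ratios in T cells were negative (-0.50, -0.97 and -0.42).

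Of 17 activation genes 1 was called higher with all cells, Cd44, and 0 lower (all tested genes 7.83% and 2.11%). Without deep cells 5 were called higher, Cd44, Cd83, Cd86, Traf1 and Ccl3, and 1 lower, Ccl4 (3.16% and 1.07%). After thinning 2 of 17 were called higher, Cd86 and Traf1, and 1 lower, Myc (156 and 34 of all 4970 genes tested after thinning). Cd83 (1208 and 170 UMIs), a surface gene of activated B cells, had 0.73 (0.49 to 0.96) and without deep cells 1.13 (0.87 to 1.37). Cd86 (184 and 31 UMIs), a ligand of CD28, had 0.99 (0.39 to 1.54) and 1.33 (0.67 to 1.93), and was in 15.5% of WT and 37.1% of 6PGDKO B cells after thinning. In T cells the ratios of these genes were 1.11 and 1.02, so they were higher in both cell types of the 6PGDKO library. Of the 13 UMIs of Ccl3 92.3% sat in 1 6PGDKO cell. None of 13 immediate early genes was called.

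Of 16 genes of memory, B-1 and atypical cells 11 were tested, of which 7 were called higher and 0 lower (all tested genes 7.83% and 2.11%). Cd5 and Tbx21, at 0 UMIs in 6PGDKO B cells, were too sparse to test. Without deep cells 4 of 10 and 0 were called (3.16% and 1.07%). The median log2 ratios were 1.69 and 0.87. The list is not particular to B cells. It stood at 746 CPM in WT B cells, 3854 in WT T cells and 2947 in WT macrophages. Only 2 of its 16 genes in WT and 5 in 6PGDKO were higher in B cells than in both other types. Its calls therefore do not show a memory state. Ahnak, a large scaffold protein gene that is higher in memory than in naive B cells, had 95 UMIs in 43 of 543 WT cells and 73 UMIs in 15 of 37 6PGDKO cells, a log2 ratio of 3.18 (2.72 to 3.63) and without deep cells 3.15 (2.57 to 3.72). After thinning it was in 4.92% of WT (3.24 to 7.13) and 31.4% of 6PGDKO B cells (16.8 to 49.3), and in 36.2% and 46.9% of T cells. Vim, the intermediate filament vimentin, had 2.19 (1.96 to 2.42) and 1.33 (0.94 to 1.71). S100a6 had 2.91 and 1.01, with 68.0% of its 253 6PGDKO UMIs in 1 cell. T cells, whose Ahnak level was 272 CPM in WT, had log2 ratios of 0.25, 0.51 and 0.19 for the 3 genes.

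**Figure D5:**
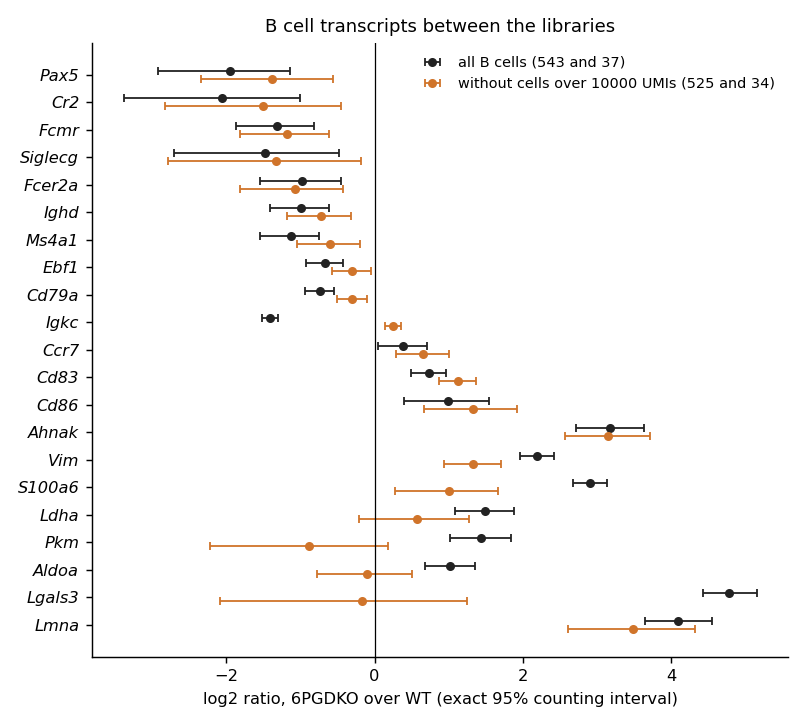
Log2 ratio of CPM, 6PGDKO over WT, of 21 genes in all B cells (black) and without B cells of over 10000 UMIs (orange), with exact 95% counting intervals; Cd79a and Ms4a1 were used by the rule. Pax5, Cr2, Fcmr and Siglecg lie below 0 and Ahnak, Vim and Cd86 above 0 in both versions, whereas Igkc goes from -1.41 to 0.25 and Lgals3 from 4.79 to -0.16.

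Antigen presentation held no called gene among 19 with all cells (all tested genes 7.83% higher and 2.11% lower, 3.16% and 1.07% without deep cells). Without deep cells 1 was higher, Cd86, and 1 lower, Ciita, the gene of the factor that switches on MHC class II, with -0.88 (-1.65 to -0.20) and without deep cells -1.31 (-2.45 to -0.36). Cd74 was near 0, at -0.14 and 0.00. Of 14 homing genes 1 was called lower with all cells and none without deep cells, against 2.11% and 1.07% of all tested genes. Of 8 BAFF and TNF family genes 2 and 0 were called lower, among them Ltb at -1.27 and -0.83.

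Interferon-stimulated genes had 2 of 21 called higher and 5 lower with all cells (all tested genes 7.83% and 2.11%). Without deep cells the counts were 0 and 5 (3.16% and 1.07%), with a median of -0.82. Ifi27l2a, Ifi213, Trim30a and Zbp1 were among the 5 in both versions. Ifi27l2a (3785 and 108 UMIs) had -1.57 (-1.86 to -1.30) and without deep cells -1.02 (-1.33 to -0.73), against -0.04 in T cells. Trim30a had -1.66 and -2.32, from 261 and 7 UMIs, against -0.21 in T cells. The list's thinned median was 5 UMIs per B cell in WT (quartiles 2 and 8) and 2 in 6PGDKO (1 and 4), and 6 in T cells and in macrophages of both libraries. Gene by gene after thinning, 0 of 18 tested were called lower and 1 higher, Isg15, with a median log2 ratio of -0.12. Over all 4970 genes tested after thinning, 34 were called lower and 156 higher. Of these 18, 11 had negative and 3 positive ratios, and 4 were at 0 UMIs in 6PGDKO. The 2 genes called higher with all cells, Isg15 and Rsad2, had most of their 15 and 10 6PGDKO UMIs in 1 cell.

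Glycolysis genes changed with the deep cells. With all cells 10 of 15 were called higher and 0 lower (all tested genes 7.83% and 2.11%), with a median of 1.27. Among the 10 were Tpi1 at 2.25, Ldha at 1.49 and Pkm at 1.44. Without deep cells 1 was called higher, Eno1 at 1.07 (0.22 to 1.82), against 3.16% of all tested genes. Pkm and Aldoa were then at -0.89 (-2.22 to 0.18) and -0.10 (-0.78 to 0.50). After thinning, the list had a median of 2 UMIs per B cell in both libraries, against 5 and 7 in T cells. Of the epithelial genes 4 of 6 tested were called higher with all cells, and 0 of 2 without deep cells.

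Pgd, the floxed gene (chr4:149149991-149166705), had 48 UMIs in WT B cells (22.2 CPM, in 7.55% of cells) and 2 UMIs in 6PGDKO B cells (10.9 CPM, in 5.41%). The log2 ratio was -1.03 (-4.11 to 0.91), so that no difference was detectable at this depth. Macrophages, the lineage of the Cre, held Pgd in 61.1% of cells in WT and 22.2% in 6PGDKO, and Lyz2 in 96.6% and 12.5%. None of the 6 tested pentose phosphate genes was called in B cells (all tested genes 7.83% higher and 2.11% lower). At those shares a count of 0 of 6 does not set the pathway apart. Tkt, of the non-oxidative branch, stood at 98.2 CPM in WT and 98.3 in 6PGDKO B cells and Taldo1 at 155 and 126. Lyz2 had 44 UMIs in 26 WT B cells and 0 in 6PGDKO.

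The genes with the largest ratios over all tested genes, some of them members of the lists above, mostly turned on the deep cells. Among the 10 highest in 6PGDKO, Lgals3 had 4.79 with all cells and -0.16 without the deep ones, Anxa1 4.63 and 0.46, and Cd9 3.07 and 0.24. Crip2, a LIM domain protein gene, had 7.02 (5.35 to 9.37) and 7.37, from 3 WT and 33 6PGDKO UMIs, of which 69.7% sat in 1 cell. Lmna, the gene of lamin A, had 4.10 (3.65 to 4.55) and without deep cells 3.48 (2.61 to 4.33), in 5.34% of WT and 24.3% of 6PGDKO cells. Fdps and Plin2, of sterol synthesis and of lipid droplets, had 2.99 and 2.97, and intervals that held 0 without the deep cells.

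Among the 10 lowest, Ighg1, Slpi and Jchain rested on few WT cells, since 1 WT cell held 85.7% of Ighg1 UMIs and 1 held 96.0% of Slpi UMIs, and without deep cells their log2 ratios were -2.02 (-7.35 to 0.51), -0.91 and 0.29. S100a8, S100a9 and Cxcl2 likewise had 56.2%, 52.1% and 59.2% of their WT UMIs in 1 cell, and S100a9, at 0 UMIs in 6PGDKO, had a log2 bound of -3.01 against 3 counts over the library's B cells, of -2.51 without deep cells and of -1.19 after thinning, with its 284 WT UMIs in 7 of 543 cells. Slfn5, an interferon-inducible gene, was spread over cells, with 178 UMIs in 100 WT cells and 2 UMIs in 6PGDKO, a log2 ratio of -2.92 (-5.97 to -1.04) and without deep cells -3.41 (-8.72 to -0.91). Fam3c (108 and 1 UMIs) had -3.20 and -2.56, and Rasal3 (97 and 1 UMIs) -3.04 and, with an interval that held 0, -2.41.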

How the data were processed

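Single-cell RNA was sequenced from leukocytes of AT3 tumors, each genotype a pool of 10 mice. Cells of both genotypes were loaded together and split by oligonucleotide into 2 sets of counts, 1 per genotype, called libraries here. The authors deposited unnormalized UMI counts per gene and barcode (Cell Ranger 6.1.2, mm10 and Seurat are named in the submitters' processing notes), with counts of 12 multiplexing oligonucleotides. The cell filters named in the report had not been applied in the deposited counts and were applied here. Depth was 27245625 UMIs in WT and 28827045 in 6PGDKO.

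UMI counts of B cells were summed per library and scaled to CPM. Shares carry Clopper-Pearson and log2 ratios exact conditional 95% intervals (scipy 1.17.1, numpy 2.4.6, pandas 2.3.3, Python 3.11.15), which cover counting error only. A gene with 0 UMIs in a library was bounded against 3 counts. Genes with at least 20 UMIs over both libraries were compared. The calculation was tested on simulated data. With 1 library per genotype no test was made. Cells were thinned to 2000 UMIs once, with a fixed seed. The B cells and gene lists were chosen with earlier results of these data known.

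Named genes were list members, Pgd and Lyz2, the 20 leading genes with at least 200 UMIs in WT B cells, the 10 highest and 10 lowest between genotypes found in at least 5 cells, and the 15 leading genes of a state with at least 50 UMIs. Promoters and gene positions came from RefSeq (GRCm38.p6). Alternatives covered the rule, the state limits, scaling, thinning and left-out cells. Those without deep cells or without cells holding other cell types' markers were chosen after seeing the data. Doublets were not called. Some genes are not reported here.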

Additional observations from a re-analysis of the deposited data

How the results depend on the processing

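No paired analysis was possible because each genotype had 1 library. The B cell share was 10.9% in WT with 0 Cd3 and C1q UMIs, and 17.4% in WT and 2.29% in 6PGDKO with no limit on them; markers outside the rule gave 2.93% in 6PGDKO. In WT the naive share was 13.1% at a limit of 3 activation UMIs, 37.0% at 8 and 35.6% after thinning, and the activated share 81.6%, 53.4% and 46.4%; the switched share thinned was 1.52%. In 6PGDKO the naive share was 2.70% at a limit of 3. The number of genes tested differed between settings. Genes called higher and lower in 6PGDKO numbered 247 and 79 of 5965 in B cells with 0 Cd3 and C1q UMIs. They numbered 79 and 10 of 2018 in naive cells, 156 and 34 of 4970 after thinning, and 210 and 71 of 6655 without deep cells. Without cells holding at least 10 UMIs of other cell types they numbered 220 and 64 of 6633. Those called higher were 336 of 4476 at a minimum of 50 UMIs and 972 of 14168 with no minimum. Light chain calls at 10 UMIs and 99% gave 3.13% kappa and 84.7% mixed in WT, and 8.11%, 89.2% and 0% lambda in 6PGDKO. Some log2 ratios changed sign: Lgals3 to -0.16 without deep cells and -0.28 without cells holding other types' UMIs, Cd9 to -0.33 after thinning, Jchain to 0.29 without deep cells, and Fcer2a to 0.0691 and Ebf1 to 0.26 in naive cells. In 6PGDKO the naive range held only 5 cells. Igkc was 0.45 in naive cells, 0.25 without deep cells and 0.26 without cells holding other types' UMIs, and Iglc2 0.0618 in naive cells and 0.0449 without cells holding other types' UMIs. Cd74 was 0.46 in naive cells, 0.0463 after thinning, 0.0023 without deep cells and 0.0649 without cells holding other types' UMIs. The causes of these moves were not tested. The other 51 values of shares and counts and 160 of single genes moved by less than their interval or 1.5 times, and 84 of single genes moved by more without a change of sign. With 0 of 37 6PGDKO cells counted, a share of up to 9.49% stays within the exact interval and can be missed.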
